A study of Homo sapiens with 267 samples.

Results

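Expression of 53 genes of the G2 phase and mitosis was examined in RNA-seq libraries of K562, a human chronic myelogenous leukemia line that carries the BCR-ABL1 fusion kinase and divides without added growth factors. The genes were taken as a fixed list of symbols. All 53 matched 1 row each among the 63677 genes of the count table. The matching used symbols alone, and the list was drawn up with earlier results of these data known.

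Cells that pass from DNA replication into mitosis switch on a shared program. Cyclin A, cyclin B and CDK1 start mitosis, Aurora and Polo kinases, kinesins and kinetochore proteins build the spindle and attach chromosomes to it, condensin and topoisomerase II compact the chromosomes, and a ubiquitin ligase activated by CDC20 ends mitosis by destroying cyclin B. In growing cultures transcripts of this program rise in G2 and fall after division, so single cells of an unsynchronised culture are known to differ widely in them.

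The cells came from 3 experiments on a microfluidic capture instrument (Fluidigm C1, SMARTer full-length cDNA, Nextera XT libraries), called runs here and named by their stain or drug. The Hoechst run held untreated cells at passages 90 to 92, stained with 2 µM Hoechst dye, which binds DNA, and 3.75 µM propidium iodide, a dead-cell stain, for 20 min. The benzene and imatinib runs held cells at passages 20 to 22 (the labels give the passages of all runs in hours), in which untreated cells carried CellTracker Green and treated cells CellTracker Orange, each at 1 µM for 30 min. The treated cells had received 10 mM benzene, a solvent toxic to bone marrow, for 3 h, or 1 µM imatinib, an inhibitor of the BCR-ABL1 kinase, for 1 h. Every group was 1 part of 1 culture, so a group counted as 1 sample, libraries were not replicates of a condition, and no test was made. Dye and drug changed together within a run and cannot be told apart. In the study's design each run held fresh cells, cells fixed in DSP, a reversible crosslinker, and a few bulk libraries. Fixed cells were captured days after the fresh cells, so a run pools captures made on different days. The labels used here did not say which libraries were fresh, fixed or bulk, or from which capture they came.

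Counts were read for 263 of 267 labelled libraries, and 242 had at most 70% of their reads in their top 500 genes and were kept. These were 82 of the Hoechst run, 31 Green and 34 benzene libraries of the benzene run, and 50 Green and 45 imatinib libraries of the imatinib run. Reads on genes ran from 50358 to 2043350 per kept library, and 2 libraries held under 500000. The median number of genes with more than 2 reads was 7411 in the Hoechst run, 5963 and 5860 in the Green and benzene groups, and 8082 and 7797 in the Green and imatinib groups. Among kept libraries 12 had over 10000 genes. No pair of libraries held identical counts. All 9 K562 and erythroid markers were expressed (summed level 7487 to 8677 CPM, counts per 1000000 reads on genes). Of 11 markers of other cell types 10 were found, with summed levels of 47.3 to 187 CPM, most of it on CD3D and EPCAM, while CD3E and MS4A1 had 0 to 0.0634 CPM.

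Many promoters of mitotic genes are known to hold a CHR (cell cycle genes homology region), the element through which the DREAM complex represses them in resting cells, and CCAAT boxes bound by NF-Y. Sequences of 250 bases before to 50 after the start, from RefSeq on GRCh38.p14, were matched for 46 of the 53 genes, and were not matched for AURKA, BIRC5, CDCA2, HMGB2, TPX2, TTK and UBE2C. A CHR, searched as TTTGAA or TTCGAA on both strands (thus also as TTCAAA), was in 32 of the 46 promoters, or 69.6%, beside 16.6% of all 27305 promoters. The shares were 58.3% of 36 promoters of other G2/M genes and 8.82% of 34 promoters of G1/S genes. A CHR lay within 50 bases of the start in 24 member promoters, or 52.2%, beside 5.05% of all promoters. CCAAT, searched on both strands (thus also as ATTGG), was in 71.7% of the member promoters, in 67.6% of the G1/S promoters and in 35.7% of all promoters. Both letter patterns were in 58.7% of the member promoters and in 6.58% of all.

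The promoters of CENPA, NDC80 and CDCA8 are shown, chosen by correlation. Among matched genes with a CHR, these 3 followed the rest of the list most closely over the libraries (see the correlations described further on). That order did not hold with the number of genes detected taken out, where NDC80, CDCA8 and CENPA came 9th, 10th and 19th of the 32 genes and TOP2A, HJURP and NUSAP1 led. Each runs from 220 bases before to 30 after the start, on the plus strand, with CHR and CCAAT letters in capitals. CENPA (chr2:26785836-26786085) encodes the histone H3 variant of centromeres, NDC80 (chr18:2571337-2571586) a kinetochore protein that binds microtubules, and CDCA8 (chr1:37692296-37692545) borealin, a subunit of the chromosomal passenger complex.
CENPA: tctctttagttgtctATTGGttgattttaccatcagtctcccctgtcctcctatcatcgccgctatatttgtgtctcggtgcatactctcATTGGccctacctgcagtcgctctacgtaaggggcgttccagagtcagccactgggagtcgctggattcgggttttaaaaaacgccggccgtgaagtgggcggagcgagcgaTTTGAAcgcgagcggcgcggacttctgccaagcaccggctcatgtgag
NDC80: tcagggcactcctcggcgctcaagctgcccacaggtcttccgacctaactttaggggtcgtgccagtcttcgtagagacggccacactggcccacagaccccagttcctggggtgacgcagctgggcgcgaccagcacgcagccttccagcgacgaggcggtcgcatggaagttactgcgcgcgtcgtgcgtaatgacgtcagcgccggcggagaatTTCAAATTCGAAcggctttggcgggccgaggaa
CDCA8: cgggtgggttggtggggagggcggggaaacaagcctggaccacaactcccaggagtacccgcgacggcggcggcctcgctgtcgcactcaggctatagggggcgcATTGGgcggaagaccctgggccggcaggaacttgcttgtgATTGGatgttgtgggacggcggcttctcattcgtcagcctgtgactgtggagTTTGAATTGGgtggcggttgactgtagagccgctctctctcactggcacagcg
In CENPA the CHR began at base -18 from the start and the CCAAT matches at -205 and -130. NDC80 held 2 adjoining CHR matches, at -3 and 4, and no CCAAT. In CDCA8 the CHR at -23 ran into the CCAAT match at -18, with others at -75 and -115. The median correlation of a gene with the rest of the list was 0.40 for the 32 genes with a CHR and 0.38 for the 14 without, and 0.35 and 0.27 with the number of genes detected taken out.

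As a whole, the 53 genes took about the same part of the transcriptome in every group. Their share of reads had a median over libraries of 0.863% in the Hoechst run (lowest 0.116%, highest 1.82%). In the benzene run it was 0.869% in Green (0.392% to 1.91%) and 0.901% in benzene libraries (0.0833% to 1.78%). In the imatinib run it was 0.755% in Green (0.372% to 1.69%) and 0.756% in imatinib libraries (0.312% to 1.58%). The 5 ranges overlapped almost fully. Benzene and Green medians differed by 0.0325 percentage points and imatinib and Green medians by 0.000832, beside standard deviations over libraries of 0.370 and 0.258. Between the Green groups of the 2 runs, with no drug in either, the medians differed by 0.113 percentage points beside a standard deviation of 0.309.

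The mean of log2(CPM + 1) over the 53 genes spread from 1.38 to 7.81 over the libraries of the Hoechst run (median 5.65, SD 1.08). Its median was 4.88 (SD 1.06) in Green and 4.65 (SD 1.26) in benzene libraries, and 5.28 (SD 0.80) in Green and 5.48 (SD 0.73) in imatinib libraries. Every difference between medians that was taken lay within 1 SD over libraries. This mean moved with the number of genes detected, with Spearman's rho of 0.60 over the 82 libraries of the Hoechst run, 0.70 over 65 of the benzene run and 0.57 over 95 of the imatinib run. The share of reads did so less, with rho of 0.08, 0.27 and -0.02. Against the share of reads on 44 G1/S genes, those of DNA replication, it gave rho of 0.11 in the Hoechst run and -0.31 in both the benzene and the imatinib run. The low means of the benzene run thus stood beside its low numbers of genes, and the part of detection in them was not tested.

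**Figure D1:**
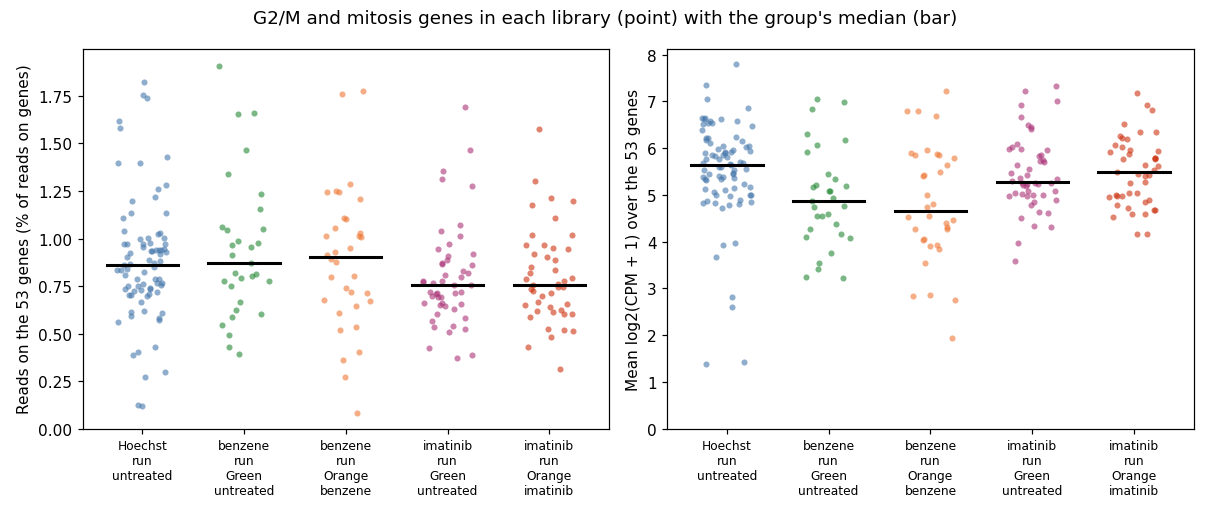
Each point is 1 library and each bar the median of its group. The left panel gives the percent of reads on genes that fell on the 53 genes, with medians from 0.755% to 0.901%. The right panel gives the mean log2(CPM + 1) over the 53 genes, whose medians run from 4.65 in benzene to 5.65 in Hoechst libraries.

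The genes were detected more often than most. A gene was called expressed in a library with more than 2 reads there. The median gene of the list was expressed in 91.5% of Hoechst, 83.9% of benzene-run Green, 82.4% of benzene, 92.0% of imatinib-run Green and 93.3% of imatinib libraries. For all 10526 expressed genes these medians were 67.1%, 51.6%, 52.9%, 74% and 73.3%. Per kb of exon, the median gene of the list stood at 25.3 CPM in Hoechst, 17.8 in benzene-run Green and 18.2 in imatinib-run Green libraries summed, beside 7.31, 6.23 and 6.57 over all expressed genes with a length. A library at 0 reads allowed up to 3 reads, or 2.23 to 2.44 CPM at the median depths of the 5 groups. Intervals given below for shares of libraries take the libraries of a group as independent draws and do not cover differences between cultures. In a sum, more libraries in G2 or mitosis and more RNA in each of them cannot be told apart.

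Levels per kb ran from 0.166 to 477 CPM in the untreated groups. HMGB2, a chromatin protein that bends DNA, was highest on average over the untreated groups, with 329, 477 and 186 CPM per kb in Hoechst, benzene-run Green and imatinib-run Green libraries. TUBB4B, a beta-tubulin of the spindle, followed with 146, 118 and 458. Then came CKS2, a small CDK-binding protein, with 175, 219 and 180, CCNB1 (cyclin B1) with 120, 193 and 172, and CDC20 with 96.8, 106 and 198. HMGB2 led only in the first 2 of these groups, and TUBB4B led in the imatinib run. The order of CKS2, CCNB1 and CDC20 likewise changed between groups. At the low end stood GAS2L3, which links actin and microtubules, with 2.81, 1.55 and 0.314 CPM per kb, UBE2C with 0.209, 0.166 and 5.93, CENPA with 3.75, 2.31 and 1.11, the ubiquitin ligase gene G2E3 with 4.85, 2.20 and 1.60, and ECT2, the exchange factor that activates RhoA at cytokinesis, with 11, 5.77 and 5.04. Single libraries set the values of GAS2L3, which were 0.614, 0.169 and 0.135 without the library with most of its reads in each group (Hoechst library 49, benzene-run Green library 23 and imatinib-run Green library 27). UBE2C was at 0.019 in benzene-run Green without library 31 and at 3.83 in imatinib-run Green without library 10.

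**Figure D2:**
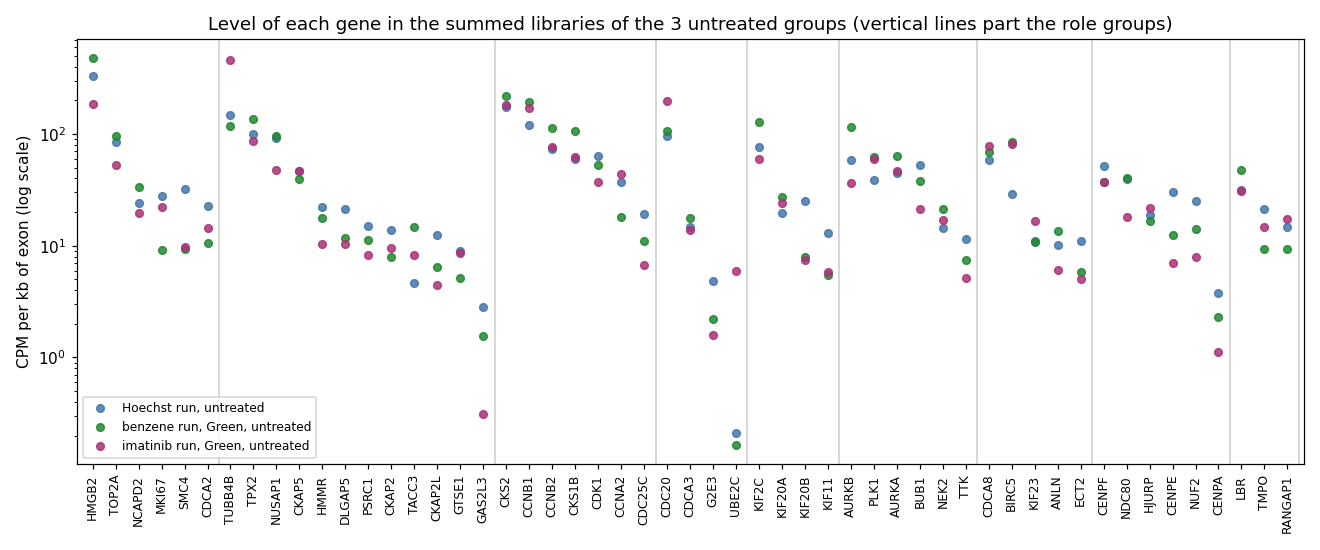
Points give each gene's CPM per kb of exon, on a log axis, in the summed libraries of the 3 untreated groups, with genes ordered by level within their role groups. HMGB2, TUBB4B and CKS2 stand at the top, and UBE2C falls to 0.166 and 0.209 in 2 of the groups.

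UBE2C stood apart from the genes it works with. It encodes the E2 enzyme that builds ubiquitin chains with the mitotic ligase that CDC20 activates, and it lies on chromosome 20 from 44441215 to 44445596 (GRCh37, plus strand, ENSG00000175063). Only 28 reads in 82 Hoechst libraries, 9 in 31 benzene-run Green, 124 in 34 benzene, 481 in 50 imatinib-run Green and 143 in 45 imatinib libraries fell on it. It had more than 2 reads in 21 of 242 libraries. The share of expressing libraries was 4.88% in the Hoechst run (95% Clopper-Pearson interval 1.34% to 12%) and 20.0% (10.0% to 33.7%) in imatinib-run Green. In benzene libraries 116 of the 124 reads came from 1 library. Of the 12 libraries with over 10000 genes 3 expressed it. CDC20, in contrast, was expressed in 85.4% of Hoechst and 98.0% of imatinib-run Green libraries. In the GENCODE annotation no exon of UBE2C overlapped an exon of another gene. That check covered only the 55665 of 63677 genes with coordinates there, and the reads had been counted against a different annotation. Whether counting lost reads of UBE2C was not tested.

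Among cyclins, CDK1 and their regulators, CCNB1 was abundant and nearly general. Its level ran from 0 to 1081 CPM in Hoechst libraries (median 217) and from 11.3 to 1187 in imatinib-run Green (median 320). CCNB2 (cyclin B2) was lower, with medians of 110.3 and 178 CPM in the same groups. The 2 genes varied alike, with rho of 0.38 in the Hoechst, 0.34 in the benzene and 0.25 in the imatinib run. CDK1, the kinase that both bind, followed CCNB1 less closely, with rho of 0.08, 0.23 and 0.34. CKS1B and CKS2, close relatives that bind CDKs, followed each other hardly at all (0.11, 0.19 and 0.06), although both were expressed in over 93% of the libraries of every group. CDC25C, the phosphatase that activates CDK1, was the rarest of the group, expressed in 61%, 58.1% and 56% of Hoechst, benzene-run Green and imatinib-run Green libraries.

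Of the mitotic kinases, AURKA, which works at spindle poles, and AURKB, the kinase of the passenger complex, were both expressed in most libraries. AURKA had medians of 80.3, 29.9 and 87.5 CPM in Hoechst, benzene-run Green and imatinib-run Green libraries, and highest values of 849.5, 1036 and 677. AURKB had medians of 65.2, 67.3 and 31.9 and highest values of 1097, 1384 and 669. Despite their relation the pair varied little together, with rho of 0.13, 0.22 and 0.12. PLK1, the Polo kinase, stood at 38.7 to 61.8 CPM per kb, BUB1 and TTK, kinases of the spindle checkpoint, at 21.1 to 53.1 and 5.10 to 11.6, and NEK2, which parts centrosomes, at 14.5 to 21.3.

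The chromosomal passenger complex and cytokinesis genes were led by CDCA8 (58.5 to 78 CPM per kb) and BIRC5, or survivin (29.1 to 84.2). KIF23, ANLN (anillin) and ECT2, of the midzone and cleavage furrow, stood at 5.04 to 16.7. BIRC5 differed most between runs. It had 0 to 753 CPM in Hoechst libraries (median 83.1), 2.85 to 925.5 in benzene-run Green (median 273) and 8.92 to 683 in imatinib-run Green (median 299).

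Centromere and kinetochore genes were mostly general, with CENPF and CENPE, large kinetochore proteins, expressed in 99.6% and 93% of all kept libraries, and NDC80 and NUF2, partners in 1 complex, in 87.2% and 87.6%. CENPA was the exception, expressed in 40.5%, with medians of 2.87 CPM in Hoechst and 0 in both Green groups. HJURP, the chaperone that loads CENPA, was expressed in 71.1%.

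Of the kinesins, KIF2C, which takes microtubule ends apart at centromeres, was highest, at 59.2 to 127 CPM per kb. KIF20A, needed at the midzone, varied most over libraries of all 53 genes by the median SD of the groups, with an SD of log2(CPM + 1) of 3.05 to 3.55 in the 5 groups and a median of only 7.25 CPM in benzene-run Green beside a highest value of 871. KIF11, which pushes spindle poles apart, and KIF20B stood at 5.45 to 13 and 7.40 to 25.3 CPM per kb.

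In the spindle group the microtubule factor TPX2 (86.5 to 136 CPM per kb) and NUSAP1 (47.7 to 95.6) came next to TUBB4B, and CKAP5, a microtubule polymerase, at 39.8 to 46.8, differed little between groups. HMMR, DLGAP5, TACC3, CKAP2, CKAP2L, PSRC1 and GTSE1 lay between 4.41 and 22.3. Of the chromosome structure genes TOP2A (topoisomerase II alpha) stood at 53 to 95.5, the condensin subunits SMC4 and NCAPD2 at 9.39 to 32.4 and 19.5 to 33.3, MKI67, the Ki-67 protein that coats mitotic chromosomes, at 9.18 to 27.7, and CDCA2 at 10.6 to 22.5. The nuclear envelope genes LBR, TMPO and RANGAP1 stood at 9.25 to 47.5, and LBR was expressed in every kept library. RANGAP1 was at 9.37 in benzene-run Green, and at 3.36 without library 1.

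Benzene and untreated Green libraries of the benzene run were compared to see whether the drug-labelled cells differed in the mitotic program. Each ratio is log2 of (CPM + 1) in the sum of 1 group over the other, and 1.5-fold was the limit for a call. AURKB and KIF2C were lower with benzene and CCNA2, PSRC1 and MKI67 higher. Of 51 genes tested, 5 were higher and 5 lower past the limit, together 19.6%, beside 43.8% of all 10072 genes tested, 24% higher and 19.8% lower. The median ratio was -0.07 for the list and 0.05 for all genes. From means of log2(CPM + 1) over libraries the order of the shares turned, with 17 of the 51 genes past the limit (33.3%, 6 higher and 11 lower) beside 28.2% of all genes, so whether the list differed less than other genes depends on how libraries are weighted.

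AURKB (chromosome 17, 8108051 to 8113918, GRCh37, minus strand) ran from 0 to 1384 CPM in Green (median 67.3) and from 0 to 571 in benzene libraries (median 9.0). Its sum went from 258 to 71.7 CPM, a log2 ratio of -1.83 or 3.57-fold lower. KIF2C (chromosome 1, 45205490 to 45233439, plus strand) ran from 3.22 to 2418 CPM in Green (median 292) and from 0.715 to 590 with benzene (median 110.5), a ratio of -1.36. The ranges of the groups overlapped for both genes. TACC3, a spindle protein that works with CKAP5, was lower by ratio (-0.84), as were KIF20A (-0.64) and NUSAP1 (-0.62). On the higher side were CCNA2, or cyclin A2 (1.00, medians 18.5 and 25 CPM), PSRC1, a spindle protein (0.98, medians 0.748 and 1.5), MKI67 (0.95, medians 81 and 93.2), CENPA (0.71) and NCAPD2 (0.59). Each of these 10 ratios was smaller than the SD of the gene over the libraries of either group, which for AURKB was 3.56 and 3.06. With each library left out in turn, AURKB, KIF2C, CCNA2 and MKI67 stayed past 1.5-fold, and the other 6 lost it without 1 library each. PSRC1 fell to 0.55 and CENPA to 0.36 without benzene library 16, NCAPD2 to 0.30 without benzene library 7, and KIF20A, TACC3 and NUSAP1 moved to -0.27, -0.49 and -0.44 without Green library 33, 28 or 29. The benzene-run Green group held the highest AURKB level of the 5 groups, and its 258 CPM stood beside 132 in Hoechst, 82.2 in imatinib-run Green and 109 in imatinib libraries.

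Not tested for benzene, for too few libraries with reads, were UBE2C (9 and 124 reads in Green and benzene) and GAS2L3 (487 and 23 reads, 436 of the 487 in 1 library). Among 43 other G2/M genes tested 7 were higher and 10 lower, or 39.5%. Among 44 G1/S genes 6 were higher and 9 lower, or 34.1%. These shares stood beside 43.8% of all genes tested and 19.6% of the tested genes of the list.

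Imatinib and untreated Green libraries of the imatinib run were compared in the same way, for 1 h of BCR-ABL1 inhibition. The genes of the list differed little between the groups. Of 52 genes tested 1 was higher and 2 lower, together 5.77%, beside 21.8% of 11416 genes (9.99% higher and 11.8% lower), and the median ratio was 0.02 beside -0.02 for all genes. With CPM + 10 in place of CPM + 1 the shares were 3.85% and 7.69%. The list stood at higher levels than most genes, so the 2 shares are not matched in level. CDC25C (chromosome 5, 137620958 to 137674044, minus strand) was higher, at 22.2 CPM in Green and 44.1 with imatinib, a ratio of 0.96. Its median went from 6.26 to 17.3 CPM and its share of expressing libraries from 56% to 71.1%, while its values ran from 0 to 191 in Green and from 0 to 292 with imatinib. HJURP was lower in the sum (82.3 and 50 CPM, ratio -0.71), but its median was 22.1 CPM in Green and 25 with imatinib, and the mean of log2(CPM + 1) differed by only -0.27. UBE2C was at 7.63 and 2.52 CPM (ratio -1.29), with a median of 0 in both groups, and the ratio was -0.75 without Green library 10. It was tested only because of Green, where 10 of 50 libraries expressed it, beside 4 of 45 with imatinib. Its direction was thus tied to the rule for testing and is not read as a result. Next to CDC25C, HJURP and UBE2C, and under 1.5-fold, came ANLN (0.55) and G2E3 (0.47) on the higher side and NEK2 (-0.58) on the lower. All 3 genes past the limit stayed past it with any 1 library left out. For CDC25C and HJURP the ratio was smaller than the SD over libraries (2.43 and 2.68 for CDC25C). Of 44 other G2/M genes tested 4 were higher and 5 lower, or 20.5%, near the 21.8% of all genes tested. Of 44 G1/S genes 1 was higher and 1 lower. The small share past the limit thus held for the list and not for the other G2/M genes. These lists were not matched in level.

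The 2 untreated Green groups were set side by side to show how far cultures of different runs differed with no drug. TUBB4B, CCNA2, MKI67 and CDC20 were higher in the imatinib run, and AURKB, HMGB2, ANLN, NDC80 and KIF2C were lower there. In all 27 of 52 genes were past 1.5-fold, 9 higher and 18 lower in the imatinib run, or 51.9%, beside 53.4% of 11098 genes, 31.6% higher and 21.8% lower. The median was -0.34 for the list and 0.13 for all genes. The split between higher and lower was 7 and 22 with TMM factors, 6 and 25 with median-of-ratios size factors, and 21 and 5 when means of log2(CPM + 1) over libraries were compared, where the median of all genes moved to 0.75 and that of the list to 0.40. This comparison shares a group with each drug comparison.

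TUBB4B (chromosome 9, 140135739 to 140138159, plus strand) was the highest in ratio after UBE2C. It ran from 0.805 to 1362 CPM in benzene-run Green (median 114) and from 84.4 to 1954 in imatinib-run Green (median 909.9), and its sums of 240.1 and 932 CPM gave a ratio of 1.95, or 3.87-fold. The benzene and imatinib libraries of the same runs had medians of 146 and 820 CPM, each near the Green group of its own run. AURKB had the lowest ratio (-1.64). HMGB2 (chromosome 4, 174252527 to 174255583, minus strand) went the other way, from 235 to 2352 CPM (median 1173) in benzene-run Green and from 85 to 971 (median 450.3) in imatinib-run Green. Its ratio of -1.36 was larger than its SD over libraries in either group (0.81 and 0.73), and its medians with benzene and imatinib were 1055 and 425. ANLN (-1.13) was next in order after HMGB2. UBE2C had the highest ratio (2.83), which was 0.79 from means of log2(CPM + 1). It was tested only because of the imatinib-run Green libraries, so its direction is not read as a result. With any 1 library left out 15 of the 27 genes stayed past 1.5-fold.

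**Figure D3:**
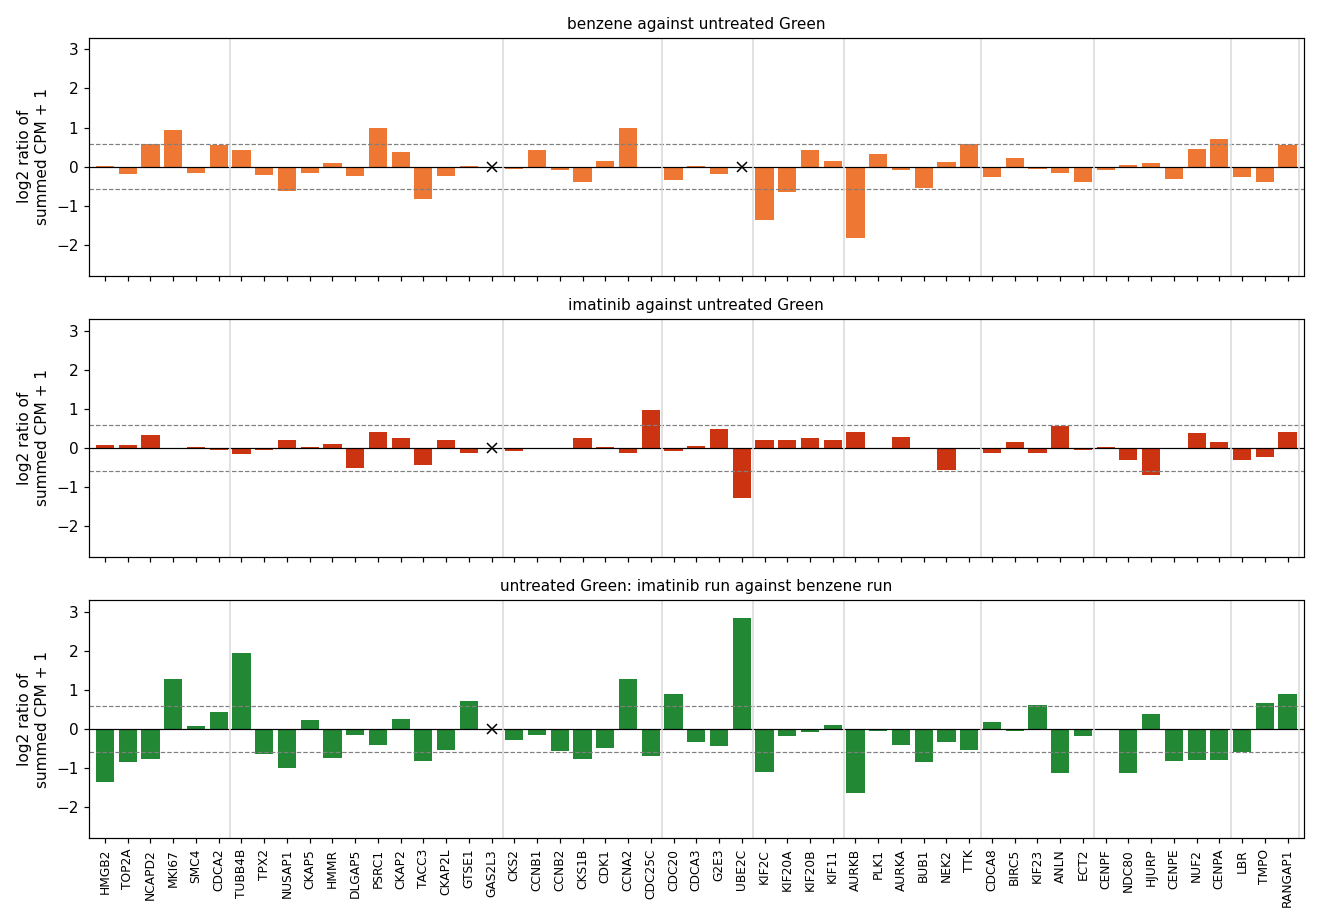
Bars give each gene's log2 ratio of summed CPM + 1 in 3 comparisons, with dashed lines at 1.5-fold, crosses for genes not tested and vertical lines between role groups. Imatinib passes the lines for 3 genes, benzene for 10 and the comparison of the 2 untreated Green groups for 27.

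The Hoechst run differed from both Green groups in cell lot, passage, stain, sequencer, read length and run at once, which cannot be told apart. By the paper, dead cells were sequenced in this run and excluded from sequencing in the other runs. CENPE, KIF20B and SMC4 were higher in it than in either Green group, and BIRC5 and TACC3 lower, under each scaling tried. Against benzene-run Green 29 of 52 genes were past 1.5-fold, 20 higher and 9 lower, beside 60.6% of 11052 genes, 39% higher and 21.6% lower. This split was 12 and 17 with TMM factors and 9 and 20 with median-of-ratios size factors, where the median of all genes moved from 0.27 to 0.01 and -0.13, and 26 and 5 from means of log2(CPM + 1), so no direction of the list as a whole can be read. Against imatinib-run Green 31 of 53 were past it, 24 higher and 7 lower, beside 57.3% of 11719 genes, 33.4% higher and 23.9% lower. The median was 0.46 for the list and 0.13 for all genes, and with median-of-ratios size factors 0.24 and -0.08. From means of log2(CPM + 1) the split was 17 and 14, with medians of 0.11 and -0.18.

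SMC4 (chromosome 3, 160117062 to 160152742, plus strand) ran from 1.22 to 759 CPM in Hoechst (median 189), from 3.85 to 208 in benzene-run Green (median 65.1) and from 7.14 to 309 in imatinib-run Green (median 69.2). The ratios of 1.77 and 1.71 were larger than its SD over libraries in the 3 groups (1.12 to 1.32). On 22.0% of its exon bases SMC4 overlaps other genes, mostly TRIM59 on the opposite strand, and a count without strand cannot part them. The paper lists ambiguous mapping apart from assigned reads, so reads there may be missing from the level of SMC4. NUSAP1 (15.2%), PLK1 (12.8%) and CDCA3 (11.3%) came next in such overlap. CENPE, the kinesin of kinetochores, had medians of 189, 87.3 and 60.3 CPM in the same order and ratios of 1.27 and 2.08. KIF20B had medians of 139.9, 33.9 and 39.1 and ratios of 1.67 and 1.76, and MKI67 was higher against benzene-run Green (1.59) but not past the limit against imatinib-run Green (0.31). BIRC5 was lower against both (-1.53 and -1.46), as was TACC3 (-1.64 and -0.80). AURKB was lower against benzene-run Green (-0.96) and higher against imatinib-run Green (0.68). TUBB4B was lower against imatinib-run Green (-1.64), and so was UBE2C (-2.77, or -0.73 from means of log2(CPM + 1)). GAS2L3 had a ratio of 2.72 against imatinib-run Green, but 1 Hoechst library held 78.6% of its reads, and without it the ratio was 0.74, and against benzene-run Green it turned from 0.81 to -1.17. UBE2C was tested only because of imatinib-run Green libraries and GAS2L3 only because of Hoechst libraries, so the direction of neither is read as a result. With any 1 library left out 19 of the 29 and 26 of the 31 genes stayed past 1.5-fold.

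The 53 genes varied together from library to library, weakly for a pair and more clearly for a gene against the rest. The median of Spearman's rho over pairs was 0.17 in the Hoechst run (1326 pairs), 0.19 in the benzene run and 0.16 in the imatinib run (1275 pairs each), beside 0.04, 0.06 and 0.04 over pairs of all expressed genes. Pairs of G1/S genes stood at 0.12, 0.11 and 0.06, and pairs of a member with a G1/S gene at 0.06, 0.05 and -0.01. Above 0 were 1192, 1174 and 1114 of the pairs. These libraries share depth and the number of genes detected. With that number taken out of the ranks the median in the benzene run was 0.12. Pairs of all expressed genes and of G1/S genes were not adjusted in this way, so 0.12 has no like background. All expressed genes were also detected in fewer libraries than the 53 genes, and the pairs were not matched for this. Each run pooled captures made on different days.

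**Figure D4:**
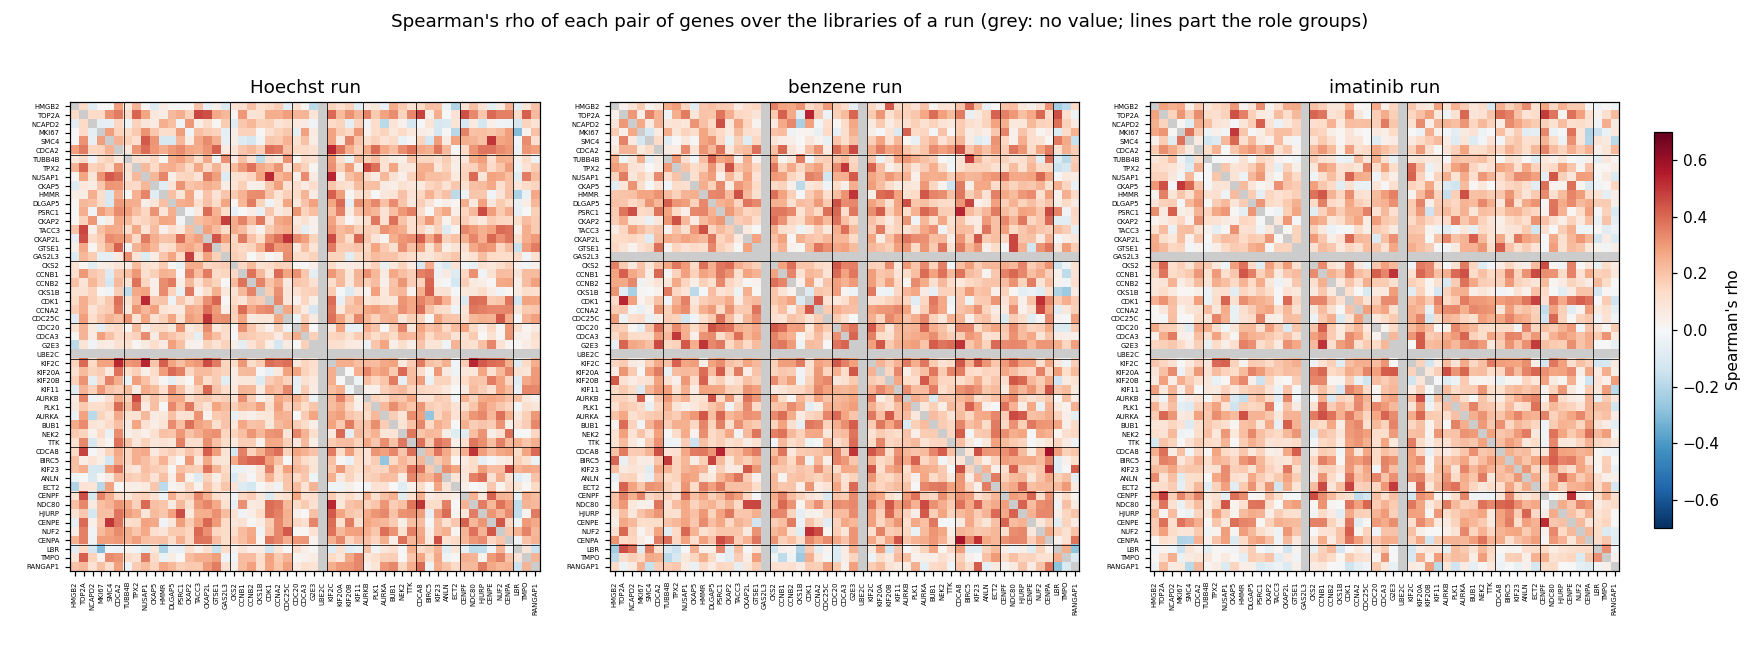
Each cell gives Spearman's rho of log2(CPM + 1) for a pair of genes over the 82, 65 or 95 libraries of a run, red for positive and blue for negative, with grey for genes expressed in too few libraries and lines between role groups. Most cells are red in each run (1192, 1174 and 1114 pairs above 0), and the row of LBR is among the palest.

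CDCA2, which recruits a phosphatase to chromosomes, followed the mean of the other genes most closely, with rho of 0.58, 0.57 and 0.42 in the Hoechst, benzene and imatinib runs. CENPA came next (0.52, 0.59 and 0.42), although it was among the lowest in level, then AURKA (0.33, 0.52 and 0.56), NDC80 (0.45, 0.56 and 0.51) and KIF2C (0.56, 0.51 and 0.32). LBR, the lamin B receptor of the nuclear envelope, followed it least (0.06, 0.11 and 0.15), although it was expressed in every library. Low too were CKS1B (0.23, 0.17 and 0.15), MKI67 (0.19, 0.27 and 0.12), SMC4 (0.26, 0.22 and 0.11) and KIF20B (0.23, 0.40 and 0.15). This order changed with the number of genes detected taken out of the ranks. By the median of the 3 runs TOP2A (0.50), CENPE (0.48), CCNB1 (0.48), AURKA (0.47), HJURP (0.45) and KIF2C (0.43) then stood above CDCA2 (0.43), CENPA, which itself followed the number of genes (0.52, 0.54 and 0.36), fell to place 27 (0.31), and LBR stayed last (0.03). UBE2C had too few libraries to be ranked in any run, and GAS2L3 had a value in the Hoechst run only. In runs where a gene had no value, it did not enter the mean of the other genes either.

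**Figure D5:**
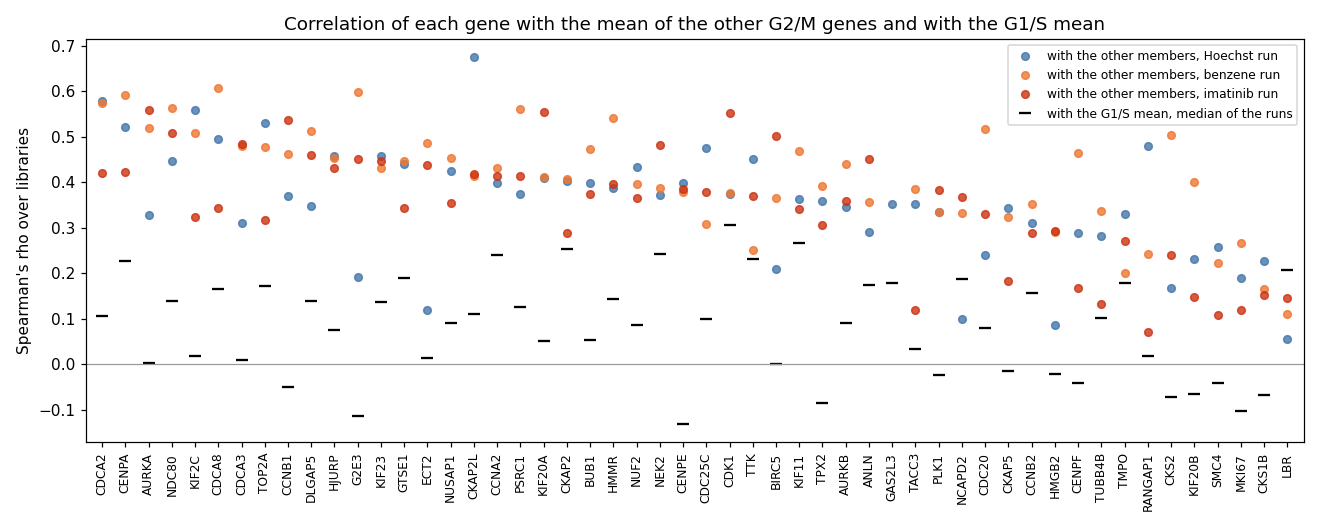
Coloured points give Spearman's rho of each gene with the mean of the other G2/M genes in each run, with genes ordered by the median, and black dashes the median rho with the mean of the G1/S genes. CDCA2, CENPA and AURKA lead and CKS1B and LBR close the order, and LBR alone has its dash (0.21) above its 3 points.

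Single pairs of partners differed. CENPE with CENPF had the highest value in its lowest run (0.42, 0.41 and 0.52 in the Hoechst, benzene and imatinib runs), ahead of CDCA8 with NDC80 (0.50, 0.38 and 0.40). NDC80 with NUF2, subunits of the same complex, reached 0.38, 0.33 and 0.34, CENPA with its chaperone HJURP 0.33, 0.33 and 0.24, and TACC3 with CKAP5 0.22, 0.30 and 0.32. CCNB1 and CDC20, which ends the life of cyclin B1, reached 0.32, 0.40 and 0.42. Subunits of the passenger complex reached 0.23, 0.09 and 0.25 for BIRC5 with CDCA8, 0.10, 0.27 and 0.18 for AURKB with BIRC5 and 0.10, 0.23 and 0.06 for AURKB with CDCA8, and the condensin pair SMC4 and NCAPD2 -0.06, 0.06 and -0.09. By role, the median tie of a gene to the rest was highest for the 3 ubiquitin ligase genes with a value (0.45, without UBE2C) and lowest for nuclear envelope genes (0.24). With the number of genes detected taken out, centromere and kinetochore genes were highest (0.40), ahead of ubiquitin ligase genes (0.38), and nuclear envelope genes again lowest (0.15).

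Outside the list, 9011 genes were ranked by the lowest of their 3 correlations with the mean of the 53 genes. The first 10 were RACGAP1, which works with ECT2 at cytokinesis (lowest rho 0.42), SGO2, which guards cohesion at centromeres (0.40), KIF18A (0.39), DEPDC1B (0.37), KIF14 (0.37), the condensin subunit NCAPG (0.35), KNSTRN (0.35), TROAP (0.35), INCENP, the scaffold of the passenger complex (0.35), and BUB1B, of the spindle checkpoint (0.34). Of these 9 were on the separate list of 44 other G2/M genes, all but DEPDC1B. None of the 44 G1/S genes was among the first 40. The median gene had a lowest rho of 0.03. The mean of the 53 genes itself followed the number of genes detected, which was not taken out of these correlations. Some of the first 10 were low in level, as INCENP and SGO2 had medians of 0 and 1.85 CPM in the benzene run.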

How the data were processed

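The authors deposited a table of raw read counts per Ensembl gene (HISAT2 alignment to GRCh37, featureCounts of Subread 1.5.0, Picard 1.92, per the labels' processing notes) and the same table as CPM, which the authors deposited with spike-in reads in the total and which was used here only as an alternative rule for expressed genes (at least 1 CPM). Only uniquely mapped reads were counted, so levels of TUBB4B, CKS1B and CDC20, which have close copies, are uncertain. The copy of CDC20, the processed pseudogene CDC20P1, had reads of its own in the count table. The kit does not mark strand. In the benzene run 4 columns matched no label and 4 labels no column, and these were not used.

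CPM was recomputed from counts without the 92 ERCC spike-in sequences. Libraries with over 70% of reads in the top 500 genes were left out. A gene was expressed with more than 2 reads and tested in a comparison when expressed in at least 20% of the libraries of either group. Ratios are log2 of summed CPM plus a pseudocount of 1, and 1.5-fold was the limit. Symbols came from a table of gene names (55665 of 63677 genes matched, with 99.0% of reads), and exon lengths and coordinates from GENCODE on GRCh37. No test was run, since each group is 1 sample. Genes named in full were the 3 highest and 3 lowest ratios in each comparison, the 5 highest and 5 lowest in level per kb and in correlation, close relatives, and the first 10 genes outside the list, with promoters of the first 3 by correlation that held a CHR. Others were named after their values were seen, and levels without the library with most reads and orders with genes detected taken out were added then. The members and lists were chosen with earlier results of these data known. Ratio and correlation steps were tested on simulated data. Alternatives included TMM factors (edgeR 4.0.16) and median-of-ratios size factors (DESeq2 1.42.0), applied to counts for scaling only. Scripts ran on scipy 1.17.1, pandas 2.3.3 and numpy 2.4.6 under Python 3.11.15.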

Additional observations from a re-analysis of the deposited data

How the results depend on the processing

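Of 1130 alternative values over 138 results, the shares of reads, module means and their differences all moved by less than 1 SD over libraries. That limit is wide. Each difference itself lay within 1 SD, so a change of its sign could be missed. With means of log2(CPM + 1) over libraries in place of sums, 54 of 260 ratios of tested members changed sign, 19 of them between the Green groups, and 33 of the 100 ratios past 1.5-fold fell within it. Of those 100, 7 changed sign: ANLN (-0.15) and PSRC1 (-0.074) for Hoechst against imatinib-run Green, PLK1 (0.10) for Hoechst against benzene-run Green, and BUB1 (0.27), HMMR (0.28), NCAPD2 (0.60) and TACC3 (0.12) between the Green groups. GAS2L3 changed sign for Hoechst against benzene-run Green (-0.039) with all libraries used. Genes past 1.5-fold for benzene numbered 17 of 51 from those means, or 33.3% beside 28.2% of all genes, and 4 with each library left out in turn, when 15 remained between the Green groups and 19 for Hoechst against benzene-run Green. Median co-expression was 0.33 in the Hoechst run with all libraries and 0.12 in the benzene run with genes detected taken out. At 1 read or more the median gene was expressed in 100% of imatinib libraries. A fixed total per library was tried by thinning to 500000 reads, which left out 2 libraries. The cause of these moves was not tested. No paired analysis was made, since each group was 1 sample and the labels did not give the capture of a library. At these depths a library with no reads cannot be told from one with up to 3.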

Other observations

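Of the 21 libraries left out for reads concentrated in few genes, 14 were of the Hoechst run. In these the 53 genes took a median of 0.151% of reads (0.0036% to 1.15%), 14 of them were expressed in the median library, and mitochondrial genes took a median of 78.2% of reads. The 6 libraries left out of the benzene run had a median of 0.493% of reads on the 53 genes and 20 of them expressed, with 24.3% on mitochondrial genes. The 1 library left out of the imatinib run had 2.26% of its reads on the list, above the highest kept library of any group, with 23 of the 53 genes expressed.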
